A study of Mus musculus with 4 samples.

Results

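Mmp14, a protease anchored in the plasma membrane, was examined in CD69+DP thymocytes together with 5 ADAM proteases, the convertase Furin and 3 inhibitors. The 10 genes were found by their symbols among the 24421 genes of the deposited table: *Mmp14*, *Adam8*, *Adam10*, *Adam15*, *Adam17*, *Adam19*, *Furin*, *Timp1*, *Timp2* and *Reck*. The set was drawn around *Mmp14* with earlier results of the same samples known, its lower value in Foxa1/2cKO among them, so the differences between genotypes in these 10 genes are given as a description, and counts from the fit across all genes stand beside them only as a background.

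Matrix metalloproteinases cut the proteins of the extracellular matrix, and Mmp14, also called MT1-MMP, does so at the cell surface, where it can also activate the secreted pro-form of Mmp2. ADAM proteases cut membrane proteins close to the membrane and release their outer part, which is called shedding, and thymocytes use this to trim receptors such as Notch1. Furin, a convertase of the Golgi, removes the inhibitory pro-part of Mmp14 and of many ADAM proteases, while the Timp proteins and Reck bind the active enzymes and block them.

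RNA was sequenced from CD4+CD8+ thymocytes that were sorted for CD69, a surface protein that appears once the T-cell receptor has signalled. The 4 samples came from the thymus of mice 6 weeks old on the C57BL/6 background. The 2 control samples were from Foxa1fl/flFoxa2fl/fl mice without CD4Cre, and the 2 Foxa1/2cKO samples were from Foxa1fl/flFoxa2fl/fl mice that carried CD4Cre, so both groups share the floxed alleles. Each sample was sorted separately from other mice, and the paper states that a sort used 2 mice of each genotype. CD4Cre is driven by regulatory sequence of the *Cd4* gene and is active in T-lineage cells.

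Levels are in FPKM (fragments per kilobase of gene, scaled for depth), a unit per length that allows levels of different genes to be compared. The reads behind them were recovered from the steps between values and summed to between 10396888 and 14482775 per sample on listed genes. *Foxa1* and *Foxa2* had a listed value of 0 in each of the 4 samples and so do not check the genotypes, and a count of 0 still allows up to 3 reads, here an FPKM of 0.0628 to 0.131 (counting error only). Foxa1/2cKO 2 stood apart from the other samples on the first principal component, at 28.5 against -11.0 to -7.42, a component that held 65.2% of the variance. All 10 DP thymocyte markers passed the filter used for the fit, and their FPKM summed to between 2897 and 3668 per sample. Markers of cells outside the sort were much lower. The 8 fibroblast markers summed to between 0.672 and 1.20, with *Dcn* and *Lum* at 0, the 8 thymic epithelial markers to between 7.84 and 10.2, the 8 myeloid markers to between 22.7 and 39.4, and the 6 B cell markers to between 52.4 and 108. The 6 erythroid markers summed to between 0.608 and 2.67, with the 4 haemoglobin genes of the list, which form pairs of near-identical copies, listed at 0. Of the 6 endothelial markers *Pecam1*, which leukocytes also express, had an FPKM of 48.6 to 61.8, the other 5 had 0.536 or less, and *Tie1* and *Emcn* were listed at 0. *Vamp7*, a gene of most cells, was also listed at 0 in all samples, so a listed 0 is not read as absence.

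In control cells *Adam10*, which makes the first membrane cut in Notch receptors, had the highest level of the 10 genes, an FPKM of 34.7 ± 0.987 (SD, n = 2). *Timp2*, an inhibitor of Mmp14 that also bridges it to pro-Mmp2, followed at 30.6 ± 0.0777, *Adam17*, the enzyme that releases TNF, at 23.0 ± 0.438, *Furin* at 19.9 ± 0.106 and *Mmp14* at 13.96 ± 0.163 (SD, n = 2 each). *Adam19* at 11.4 ± 0.890, *Adam15* at 6.60 ± 1.37, *Adam8* at 1.49 ± 0.263 and *Reck* at 1.15 ± 0.122 came next (SD, n = 2 each), and *Timp1* was last at 0.0751 ± 0.106. Each gene in this order lay above the next in both controls, although the lowest control value of *Adam8*, 1.30, was close to the highest of *Reck*, 1.24. Over all 4 samples 6 of the 9 neighbouring pairs overlapped, and the pairs that did not were *Timp2* with *Adam17*, *Furin* with *Mmp14*, and *Reck* with *Timp1*. *Adam10* was above 83.96% of the 16069 genes detected in at least 1 sample, *Mmp14* above 65.1% and *Reck* above 34.4%. In Foxa1/2cKO *Mmp14* moved from place 5 to place 6 of the 10 and *Adam19* from 6 to 5, although the 2 Foxa1/2cKO samples differed widely in *Adam19*. *Adam8* and *Reck* also changed places, with close means of 1.14 and 1.16. The samples disagreed, as *Reck* was higher in Foxa1/2cKO 1 (1.38 against 1.01) and *Adam8* in Foxa1/2cKO 2 (1.27 against 0.935).

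**Figure D1:**
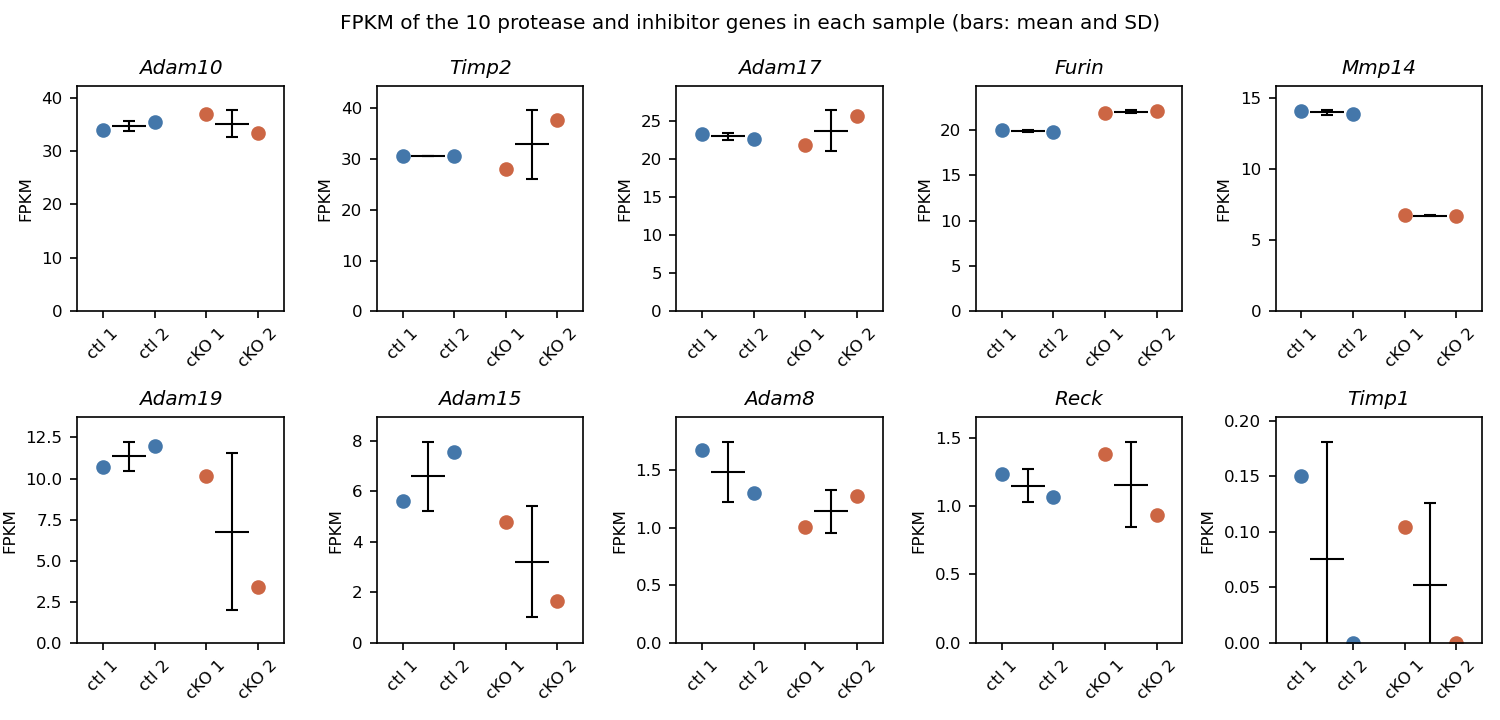
FPKM of the 10 genes in each sample, one panel per gene in the order of the control means, on linear axes that start at 0; ctl is control, cKO is Foxa1/2cKO, points are samples and bars are the mean and SD of 2 samples. *Mmp14* is at 14.1 and 13.8 in control and at 6.74 and 6.70 in Foxa1/2cKO, while *Adam19* and *Adam15* are lowest in Foxa1/2cKO 2.

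*Mmp14* lies on chromosome 14 of mm10 (54431612 to 54445364, plus strand). Its FPKM was 14.1 for control 1 and 13.8 for control 2, against 6.74 for Foxa1/2cKO 1 and 6.70 for Foxa1/2cKO 2, from 547, 488, 189 and 193 reads. Both Foxa1/2cKO samples lay below both controls, and within each group the samples were nearly equal. The mean in control was 2.08-fold that in Foxa1/2cKO, and the log2(FPKM + 1) difference was -0.95 (standard error 0.09). The 8 fibroblast markers, from cells that also express *Mmp14*, summed to 1.20 and 1.08 FPKM in control against 1.08 and 0.672 in Foxa1/2cKO, and 0 of the 8 passed the filter. Summed myeloid markers were 39.4 and 23.3 FPKM in control against 39.2 and 22.7 in Foxa1/2cKO. Summed thymic epithelial markers were 9.98 and 7.84 in control against 10.2 and 8.40 in Foxa1/2cKO. The part of such cells in the values of *Mmp14* was not tested. In these bulk samples fewer cells that express the gene and less RNA per cell cannot be told apart. Of all 10776 genes tested, 0.371% had a lower value of this difference. The gap between the 2 Foxa1/2cKO samples was also small, 0.01 on the log2 scale, and 2.20% of the genes tested had a smaller gap, whereas the median gap over all genes was 0.20. Counting error alone was 4.28% to 7.27% of each value, more than this gap, so the near equality is not read as precision. Without Foxa1/2cKO 2, the sample that stood apart, the difference was -0.95, and without Foxa1/2cKO 1 it was -0.96.

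The bases before the annotated start of *Mmp14* are shown because the set was drawn around this gene, and those of *Adam19* and *Adam8* because they alone among the 10 genes held the forkhead-type letters searched for. The 250 bases before each start were taken from RefSeq on GRCm38.p6, which gave 13 windows for the 10 genes and 32851 windows for all genes. The letters TGTTTAC and TGTTTGC, the core that forkhead proteins such as Foxa1 and Foxa2 bind, and GGGCGG, the GC box, were searched on both strands. The sequences run 5′ to 3′ on the strand of the gene, with matches in capitals.
*Mmp14*, chr14:54431348-54431597, plus strand: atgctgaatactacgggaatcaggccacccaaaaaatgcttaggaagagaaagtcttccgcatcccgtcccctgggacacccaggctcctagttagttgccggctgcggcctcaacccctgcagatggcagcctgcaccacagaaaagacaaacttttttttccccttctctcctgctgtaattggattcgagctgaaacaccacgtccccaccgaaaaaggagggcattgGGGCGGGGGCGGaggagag
*Adam19*, chr11:46054252-46054501, plus strand, the first of 3 annotated starts: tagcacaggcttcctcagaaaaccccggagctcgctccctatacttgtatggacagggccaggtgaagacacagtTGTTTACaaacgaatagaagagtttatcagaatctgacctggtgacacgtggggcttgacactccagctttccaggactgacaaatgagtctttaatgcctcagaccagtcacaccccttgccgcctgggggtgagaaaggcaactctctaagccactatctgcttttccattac
*Adam8*, chr7:139992563-139992812, minus strand: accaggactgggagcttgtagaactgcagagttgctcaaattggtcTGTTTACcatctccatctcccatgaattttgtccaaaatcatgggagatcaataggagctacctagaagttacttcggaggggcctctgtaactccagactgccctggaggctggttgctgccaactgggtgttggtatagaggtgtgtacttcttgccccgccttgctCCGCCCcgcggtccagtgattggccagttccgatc
The *Mmp14* window held 2 GC boxes side by side, beginning 19 and 13 bases before the start, and neither forkhead core. *Adam19* had TGTTTAC beginning 175 bases before its first start, and *Adam8* had it beginning 204 bases before its start. Neither of the other *Adam19* windows held a forkhead core. One of these, chr11:46055734-46055983, lies next to the gene start given below for *Adam19*, 46055992. One of the 2 forkhead cores was found in 2 of the 13 windows, and in 7.29% of all windows. A GC box was found in 9 of the 13 windows, or in at least 1 window of each gene but *Adam19*, and in 32.7% of all windows. The *Mmp14* window had 55.2% G and C and 10 CpG, beside medians of 52.4% and 6 over all windows. Letters in a window do not show binding, and their absence says nothing about binding elsewhere.

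Among the shedding proteases, *Adam15* (chromosome 3, 89338542 to 89349996) and *Adam19* (chromosome 11, 46055992 to 46147343) were lower in Foxa1/2cKO, with most of the difference in 1 sample. *Adam15*, an ADAM protease whose outer part can also bind integrins, had an FPKM of 5.63 and 7.57 in control, against 4.77 for Foxa1/2cKO 1 and 1.66 for Foxa1/2cKO 2, from 252, 307, 154 and 55 reads. *Adam19*, also called meltrin beta, had 10.7 and 11.98 in control, against 10.2 for Foxa1/2cKO 1 and 3.38 for Foxa1/2cKO 2, from 1035, 1049, 707 and 242 reads. In both genes the groups did not overlap, but Foxa1/2cKO 1 was nearer to the lower control than to Foxa1/2cKO 2.

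The log2 difference of *Adam15* was -0.94 (standard error 0.40), and it was -0.38 without Foxa1/2cKO 2 and -1.50 without Foxa1/2cKO 1. That of *Adam19* was -0.82 (standard error 0.45), with -0.15 and -1.49 for the same 2 alternatives. The size of the mean difference was thus near that of *Mmp14*, but the gap between the 2 Foxa1/2cKO samples was larger than in 97.1% of the genes tested for *Adam15* and 98.6% for *Adam19*. The controls also differed in *Adam15*, by 0.37 on the log2 scale, a gap larger than in 95.7% of the genes. The ratio of *Adam19* to *Adam15* within a library was 1.90 and 1.58 in control against 2.13 and 2.04 in Foxa1/2cKO. Summed myeloid markers were 39.4 and 23.3 FPKM in control against 39.2 and 22.7 in Foxa1/2cKO, and their part in the values of *Adam15* and *Adam19* was not tested. Of the exon bases of *Adam15*, 20.6% are shared with the antisense transcript *4731419I09Rik*, and for *Adam19* 8.25% with *Gm16033* and 6.75% with *Gm16034*, from which reads cannot be told apart if they were counted without strand.

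*Adam10* and *Adam17*, the most abundant sheddases, had overlapping groups. *Adam10* (chromosome 9, 70678997 to 70780229) had an FPKM of 33.98 and 35.4 in control against 36.9 and 33.3 in Foxa1/2cKO, a log2 difference of 0.02 (standard error 0.09). *Adam17* (chromosome 12, 21323509 to 21373632) had 23.3 and 22.7 in control against 21.9 and 25.7 in Foxa1/2cKO, a log2 difference of 0.04 (standard error 0.11). In both genes 1 Foxa1/2cKO sample lay above the controls and the other below them, and in opposite order, so the ratio of *Adam10* to *Adam17* was highest in Foxa1/2cKO 1 (1.69) and lowest in Foxa1/2cKO 2 (1.30), beside 1.46 and 1.56 in the controls. With 1696 reads or more for *Adam10* and 1074 or more for *Adam17* in every sample, counting error was at most 3.05% of a value. Of the exon bases of *Adam17*, 4.35% are shared with *Iah1* on the other strand.

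*Adam8*, a sheddase of leukocytes (chromosome 7, 139978932 to 139992562), was low in all samples, with an FPKM of 1.67 and 1.30 in control against 1.01 and 1.27 in Foxa1/2cKO. These values rest on 78, 55, 34 and 44 reads, so that counting error alone is 11.3% to 17.1% of each. Both Foxa1/2cKO samples lay below both controls, but only narrowly for Foxa1/2cKO 2, with 1.27 against 1.30 in control 2. The log2 difference was -0.21 (standard error 0.19), and it ran from -0.38 with limma-voom to -0.11 without control 1.

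*Furin* (chromosome 7, 80388585 to 80405436) was slightly higher in Foxa1/2cKO. Its FPKM was 19.99 and 19.8 in control against 21.9 and 22.2 in Foxa1/2cKO, from 1333, 1200, 1055 and 1095 reads. Neither control reached the lower of the Foxa1/2cKO values. The log2 difference was 0.14 (standard error 0.08), and 80.7% of the genes tested had a lower value of it, so a difference of this size was common. Like *Mmp14*, *Furin* had nearly equal values in the 2 Foxa1/2cKO samples, and 3.82% of the genes had a smaller gap. Counting error alone was 2.74% to 3.08% of each value, so this gap too is not read as precision. Within a library the level of *Furin* was 1.42-fold and 1.43-fold that of *Mmp14* in the controls and 3.25-fold and 3.31-fold in Foxa1/2cKO.

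Of the inhibitors, *Timp2* (chromosome 11, 118301069 to 118355740) had an FPKM of 30.7 and 30.6 in control, against 28.1 for Foxa1/2cKO 1 and 37.7 for Foxa1/2cKO 2. The controls were nearly equal, and the 2 Foxa1/2cKO samples lay on either side of them. The log2 difference was 0.09 (standard error 0.16), with -0.12 without Foxa1/2cKO 2 and 0.29 without Foxa1/2cKO 1. The level of *Timp2* was 2.18-fold and 2.21-fold that of *Mmp14* in the controls, 4.17-fold in Foxa1/2cKO 1 and 5.62-fold in Foxa1/2cKO 2. *Reck*, an inhibitor held in the membrane by a lipid anchor (chromosome 4, 43875530 to 43944806), had an FPKM of 1.24 and 1.06 in control against 1.38 and 0.935 in Foxa1/2cKO, from 82, 64, 66 and 46 reads. Its groups overlapped and its log2 difference was -0.00 (standard error 0.20). *Timp1*, a secreted inhibitor that acts poorly on membrane-bound metalloproteinases (chromosome X, 20870166 to 20874735), had 2 reads in control 1 and 1 read in Foxa1/2cKO 1 and was listed at 0 in the other samples, under the limit of 3 reads, an FPKM of 0.225 to 0.312. No fold is given for it.

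Of the 10 genes, 9 passed the filter for the fit across all genes, which asked for 2 samples or more that reached 1 FPKM, and *Timp1* did not. Groups without overlap were seen in 5 of these, with *Mmp14*, *Adam15*, *Adam19* and *Adam8* lower and *Furin* higher in Foxa1/2cKO. Over all 10776 genes tested this held for 36.7%, and for 17.8% with Foxa1/2cKO lower. An adjusted p under 0.05 (limma with Benjamini-Hochberg adjustment) was given to 0.00928% of the genes tested, and to 0 of the 9. An unadjusted p under 0.05 was given to 4.55% of the genes, or 2.15% with Foxa1/2cKO lower, and to 1 of the 9, *Mmp14*, which was chosen on this contrast, so nothing is read from its p. The median log2 difference was -0.00 over the 9 genes and 0.01 over all genes.

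**Figure D2:**
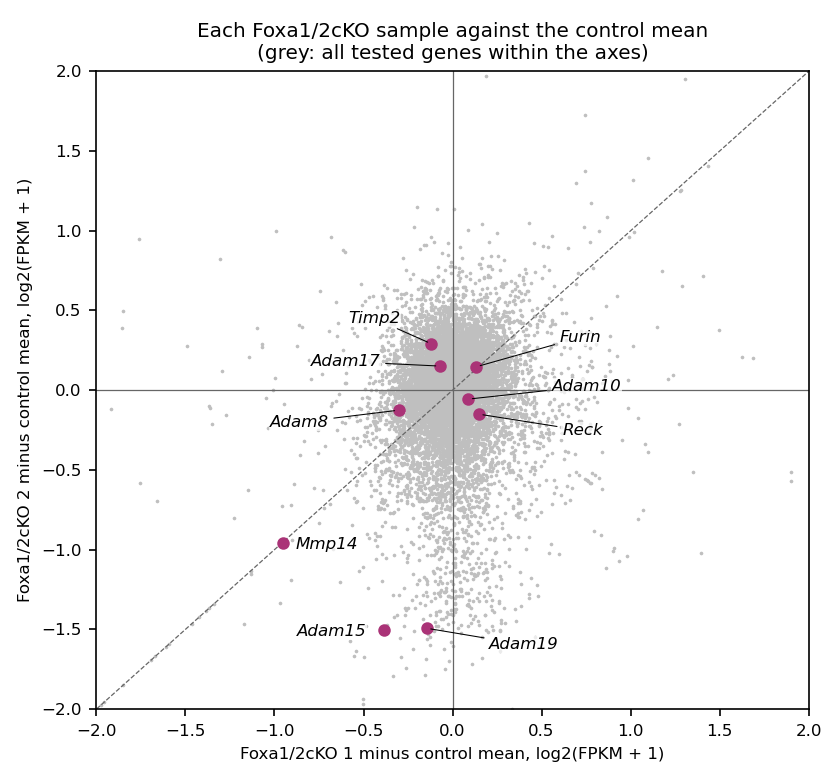
Difference of each Foxa1/2cKO sample from the mean of the 2 controls on the log2(FPKM + 1) scale, with Foxa1/2cKO 1 on the x axis and Foxa1/2cKO 2 on the y axis; grey points are all tested genes within the axes, purple points are the 9 genes that passed the filter, and the dashed line marks equal differences. *Mmp14* lies on the dashed line at -0.95 and -0.96, while *Adam19* lies at -0.15 and -1.49 and *Adam15* at -0.38 and -1.50.

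The genes whose 4 values lay nearest to those of *Mmp14*, by Euclidean distance of log2(FPKM + 1) less the control mean over the 4 samples, were *H1f0*, *Scarna17*, *Snord35a*, *Snord38a* and *Cdc42ep4*. *H1f0*, a linker histone, was nearest at a distance of 0.156, with an FPKM of 57.4 and 65.4 in control against 32.4 and 31.5 in Foxa1/2cKO. *Cdc42ep4*, an effector of the GTPase Cdc42, was at a distance of 0.269, with 4.47 and 5.11 in control against 2.44 and 2.24 in Foxa1/2cKO. The other 3 are short nuclear RNAs with few reads, 9 to 26 for *Scarna17*, 5 to 14 for *Snord35a*, and 1 in each control and 0 in each Foxa1/2cKO sample for *Snord38a*. Since all 5 were picked for this pattern, their values are a description.

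Of the 4 genes next to *Mmp14* on chromosome 14, 3 had both Foxa1/2cKO samples below both controls, *Mrpl52*, *Slc7a7* and *Rem2*. The same held for 17.8% of all genes tested. The nearest values of the groups were 98.45 against 98.59 for *Mrpl52* and 1.70 against 1.73 for *Slc7a7*, so these separations were narrow. *Mrpl52*, a mitochondrial ribosomal protein gene that ends 1856 bases before it, had an FPKM of 98.6 and 99.2 in control against 80.3 and 98.5 in Foxa1/2cKO. *Slc7a7*, an amino acid transporter 13832 bases before it, had 2.16 and 1.73 in control against 1.70 and 0.899 in Foxa1/2cKO. *Lrp10*, a lipoprotein receptor family member 18773 bases after it, had 157 and 147 in control against 149 and 218 in Foxa1/2cKO, and *Rem2*, a small GTPase 30736 bases after it, had 1.17 and 1.21 in control against 0.834 and 0.430 in Foxa1/2cKO. The log2 differences of the 4 neighbours ranged from -0.43 to 0.25, with standard errors of 0.12 to 0.24, beside -0.95 (standard error 0.09) for *Mmp14*, on a scale that understates the differences of the low genes *Slc7a7* and *Rem2*.

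Among other matrix metalloproteinases little was expressed. Of the 21 in the list, 6 were listed at 0 in all samples (*Mmp3*, *Mmp7*, *Mmp10*, *Mmp16*, *Mmp20* and *Mmp27*) and 5 passed the filter. *Mmp14* had the highest level of them all. *Mmp11* had an FPKM of 4.12 and 3.99 in control against 3.89 and 2.48 in Foxa1/2cKO, *Mmp15*, another membrane-anchored form, had 2.40 and 2.65 in control against 1.99 and 2.09 in Foxa1/2cKO, and *Mmp17*, anchored by a lipid, had 1.21 and 1.29 in control against 1.43 and 1.55 in Foxa1/2cKO. Beside *Mmp14*, then, 2 of them lay below the controls and 1 above in both samples, with log2 differences of -0.29 (standard error 0.20), -0.21 (standard error 0.15) and 0.15 (standard error 0.17). *Mmp9*, also tested, had overlapping groups, with an FPKM of 1.07 and 1.81 in control against 1.52 and 0.454 in Foxa1/2cKO. Over all genes tested, 17.8% lay lower and 18.9% higher without overlap. *Mmp2*, the secreted enzyme that Mmp14 activates, had an FPKM of 0.154 or less in all samples.

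The other lists held secreted ADAMTS proteases, further inhibitors and convertases, partners of Adam10 and Adam17, secretases, shedding substrates, partners and substrates of Mmp14, and surface peptidases. The 10 lists held 125 genes beside the 10 described, of which 58 passed the filter, and limma gave 0 of the 58 an adjusted p under 0.05 with Benjamini-Hochberg adjustment. Limma gave 5 of them an unadjusted p under 0.05, 4 higher and 1 lower in Foxa1/2cKO, and limma-voom on the recovered reads gave 0 adjusted and 6 unadjusted. Groups without overlap were found for 21 of the 58, or 36.2%, close to the 36.7% of all genes, and their median log2 difference was -0.01. By list, the median ran from -0.29 in the 5 tested matrix metalloproteinases to 0.08 in the 5 tested convertases, and was -0.14 in the 17 tested shedding substrates.

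Of the 12 ADAM proteins 8 were tested, and 4 lay lower without overlap, *Adam8*, *Adam15*, *Adam19* and *Adam11*, a neural family member without protease activity. *Adam11* had an FPKM of 4.24 and 2.82 in control against 2.41 and 2.39 in Foxa1/2cKO. Of the 17 tested shedding substrates 4 lay lower and 2 higher without overlap, and of the 13 tested partners of Mmp14 2 lay lower and 2 higher. The counts were 3 higher of 5 tested surface peptidases, 1 higher of 3 ADAMTS proteases, 1 lower and 1 higher of 5 convertases, 1 lower of 4 partners of Adam10 and Adam17, 1 lower of 6 secretases and 0 of 2 inhibitors. Over all genes tested the shares were 17.8% lower and 18.9% higher.

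**Figure D3:**
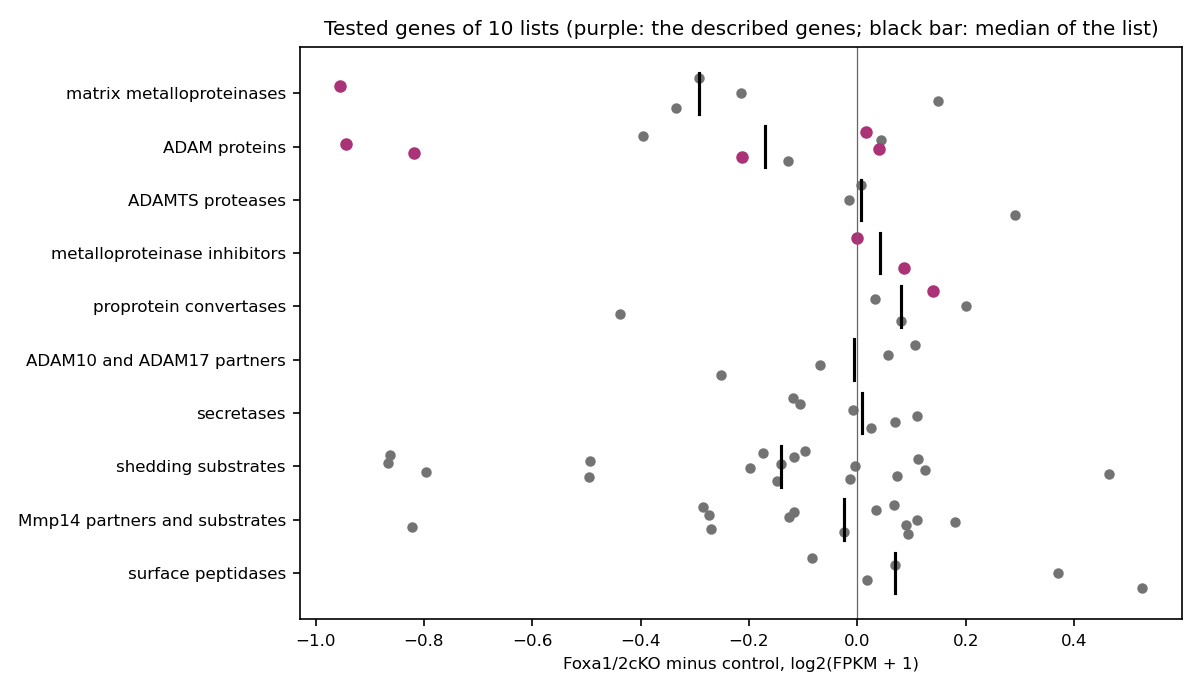
Log2(FPKM + 1) difference between Foxa1/2cKO and control for each tested gene of the 10 lists; purple points are the genes described here, grey points the other genes, black bars the median of each list, and the vertical line marks no difference. *Mmp14* and *Adam15* lie furthest to the left at -0.95 and -0.94, followed by *Il6ra*, *Cd40lg*, *Itgb3*, *Adam19* and *Notch3*, at -0.87 to -0.80.

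Substrates and partners that were lower had mostly the pattern of *Adam15* and *Adam19* rather than that of *Mmp14*, a grouping made after their values were seen. *Il6ra*, the IL-6 receptor that Adam17 and Adam10 shed, had an FPKM of 10.4 and 12.1 in control, against 9.53 for Foxa1/2cKO 1 and 3.29 for Foxa1/2cKO 2. *Itgb3*, an integrin chain that works with Mmp14 on other cells, had 17.3 and 19.0 in control, against 14.97 for Foxa1/2cKO 1 and 6.36 for Foxa1/2cKO 2. *Notch3*, a receptor that Adam10 cuts, had 9.34 and 9.76 in control, against 7.02 for Foxa1/2cKO 1 and 3.60 for Foxa1/2cKO 2. In Foxa1/2cKO 2 these 3 genes were at 29.2% to 37.7% of the control mean, *Adam15* at 25.1% and *Adam19* at 29.8%, whereas in Foxa1/2cKO 1 the 5 genes were at 72.3% to 89.5%. *Mmp14* was at 48.3% and 48.0%. Genes outside the pathway lists, named after their values were seen, also differed between the 2 Foxa1/2cKO libraries. *Ptcra*, a DP thymocyte marker that encodes the pre-T-cell receptor alpha chain, had 11.2 and 11.9 FPKM in control, against 7.44 for Foxa1/2cKO 1 and 3.23 for Foxa1/2cKO 2. Most DP thymocyte markers went the other way: of the 10, 8 had a higher mean in Foxa1/2cKO and 2, *Ptcra* among them, a lower one. The mitotic genes *Top2a*, *Cenpf* and *Aurkb* differed from control by 0.27, 0.22 and -0.02 on the log2 scale in Foxa1/2cKO 1 and by -1.51, -1.48 and -1.47 in Foxa1/2cKO 2. Their part in the values of *Adam15*, *Adam19* and these 3 genes was not tested. *Ptk7*, a receptor-like protein that Mmp14 cuts, was lower in both Foxa1/2cKO samples to a like degree, with 8.37 and 7.93 in control against 6.81 and 6.36 in Foxa1/2cKO.

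**Figure D4:**
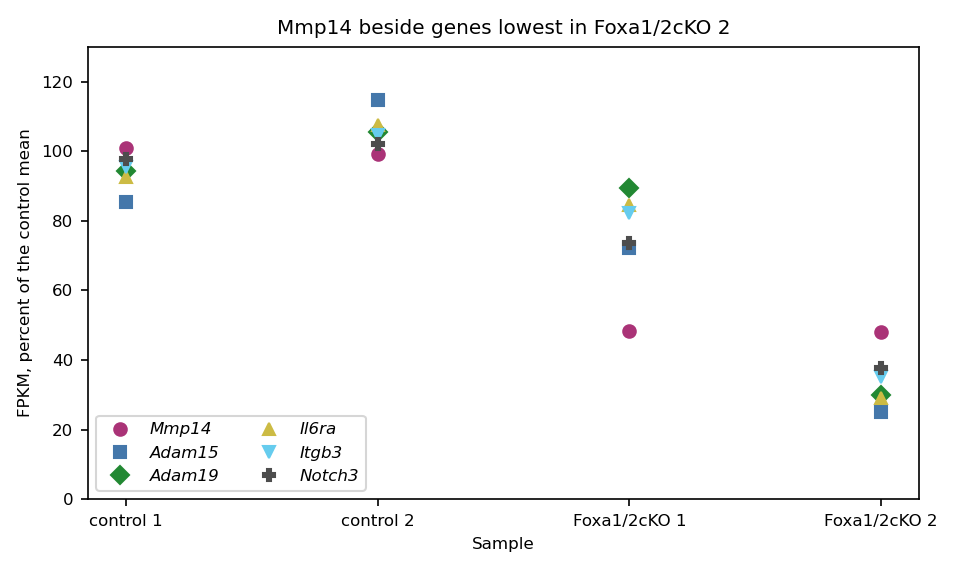
FPKM in each sample as a percentage of the control mean of the gene, on a linear axis that starts at 0, for *Mmp14*, *Adam15*, *Adam19*, *Il6ra*, *Itgb3* and *Notch3*. *Mmp14* is at 48.3% and 48.0% in the 2 Foxa1/2cKO samples, and the other 5 genes are at 72.3% to 89.5% in Foxa1/2cKO 1 and at 25.1% to 37.7% in Foxa1/2cKO 2.

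Among the genes of the lists with an unadjusted p under 0.05 and a higher level were 3 proteases. *Lnpep*, an aminopeptidase of endosomes and the membrane, had an FPKM of 21.4 and 19.2 in control against 29.4 and 29.8 in Foxa1/2cKO, a log2 difference of 0.53 with a standard error of 0.09 (adjusted p = 0.863 by limma). *Dpp4*, the peptidase also called CD26, had 20.9 and 20.4 in control against 26.0 and 28.0 in Foxa1/2cKO, a log2 difference of 0.37 with a standard error of 0.09 (adjusted p = 0.863 by limma). *Adamts6*, a secreted protease, had 8.51 and 8.92 in control against 11.3 and 10.4 in Foxa1/2cKO. In these 3 genes the groups did not overlap, and none passed the adjusted threshold.

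Partners that bring Adam10 and Adam17 to the surface and the secretases that cut after them mostly had overlapping groups. *Frmd8*, which keeps the Adam17 partner iRhom at the surface, had an FPKM of 87.6 and 82.3 in control against 83.7 and 100.02 in Foxa1/2cKO, and *Tspan14*, a tetraspanin that carries Adam10, had 32.1 and 34.2 in control against 30.7 and 32.3 in Foxa1/2cKO. *Tspan5*, another tetraspanin of Adam10, had 7.44 and 7.25 in control against 6.81 and 5.29 in Foxa1/2cKO. *Ncstn* and *Psenen*, subunits of the secretase that cuts Notch after Adam10, had log2 differences of -0.01 and 0.03, with standard errors of 0.09 and 0.12. *Mbtps1* and *Pcsk7*, convertases of the family of *Furin*, had log2 differences of 0.03 and 0.08, each with a standard error of 0.12. Of these 7 genes, the groups did not overlap in *Tspan5* alone, with a log2 difference of -0.25 (standard error 0.14).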

How the data were processed

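RNA of 2 control and 2 Foxa1/2cKO samples of sorted CD69+DP thymocytes was analysed. The authors aligned the reads to mm10 through BaseSpace and counted them per RefSeq gene by HTSeq (union mode), and the submitters' processing notes also name TopHat, Picard and DESeq2. The deposited values are FPKM, and the tool that made the FPKM is not given in the sources used here. Reads were recovered as the smallest whole numbers that also made the gene length whole, which succeeded in 100% of 16069 genes above 0 (tolerance 0.001 reads). The totals behind the FPKM were 10796528 to 14968316. For Foxa1/2cKO 2, the library that stood apart, the total of 11093927 was below its 11262422 recovered reads on listed genes, unlike in the other 3 samples, so the scaling and recovered reads of this library are uncertain. P-values measure only the spread between these samples, and limma draws the variance of each gene toward that of genes of like level. Its standard errors share this, with 2.69 prior beside 2 residual degrees of freedom.

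Differences were fitted with limma 3.58.1 (R 4.3.3) on log2(FPKM + 1) with a mean-variance trend, over the 10776 genes that reached 1 FPKM in 2 samples or more, with Benjamini-Hochberg adjustment and a threshold of 0.05. The pseudocount of 1 understates changes of low genes. Limma was tested on simulated data. The 10 described genes and all lists (10 pathway and 7 marker lists) were chosen with earlier results of these data known. Named from each list were the 3 most abundant genes and up to 2 per direction with the largest difference among those whose groups did not overlap, with the 5 genes nearest to *Mmp14*, 2 neighbours on each side, the targeted genes and genes that overlap the 10. Promoter windows were read from RefSeq, and protein sequences were not analysed here. Alternatives were another pseudocount, other filters, upper-quartile scaling, a replicate block, each sample left out, limma-voom and another threshold. Some genes that the rule names are not reported here. *Adam11*, *Cd40lg*, *Mmp2* and *Mmp9* were named after their values were seen. Coordinates are from GENCODE M21 on GRCm38, the assembly of mm10. Tables and figures used Python 3.11.15, pandas 2.3.3, numpy 2.4.6 and matplotlib 3.10.9.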

Additional observations from a re-analysis of the deposited data

How the results depend on the processing

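The number of genes called by limma was 1 over all genes and 0 with a pseudocount of 0.1, with no filter on low values, with an FPKM of at least 1 in all 4 samples and with limma-voom on recovered reads. It was 1 with upper-quartile scaling and at an adjusted p threshold of 0.1. When 1 sample at a time was left out, it ranged from 0 to 2559: 0 without either control, 19 without Foxa1/2cKO 2 and 2559 without Foxa1/2cKO 1, where the lone sample is assumed to vary like the controls. Without Foxa1/2cKO 1 the log2 differences were -1.50 for *Adam15*, -1.49 for *Adam19*, -0.96 for *Mmp14* and 0.29 for *Timp2*. Without Foxa1/2cKO 2 those of the same genes were -0.38, -0.15, -0.95 and -0.12.

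The log2 difference of *Mmp14* was -1.04 with a pseudocount of 0.1 and -1.05 with limma-voom, and from -0.97 to -0.94 with each sample left out. *Mmp14* took place 6 of the 10 levels in Foxa1/2cKO. *Adam15*, *Adam19*, *Adam8*, *Furin* and *Mmp14* had the same sign under every alternative run, while *Adam10*, *Adam17*, *Timp2* and *Reck*, all near 0, changed sign in 6 values with a sample left out. *Adam8* had -0.38 with limma-voom, -0.35 with a pseudocount of 0.1, -0.32 without control 2, -0.11 without control 1 and -0.13 without Foxa1/2cKO 1. An alternative chosen after seeing the data counted the genes outside both controls in 1 Foxa1/2cKO sample alone, which were 9 of 9 in either sample, beside 77.1% of all genes in Foxa1/2cKO 1 and 85.9% in Foxa1/2cKO 2.

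With a replicate block the number of calls was 1 and the log2 difference of *Mmp14* was -0.95, with a standard error of 0.14. The paper puts both genotypes in a sort, but the labels do not say that equal replicate numbers mark a shared sort. The deviations of control 1 and Foxa1/2cKO 1 from their group means had a correlation of -0.06 across genes. With 2 samples a group, an *Adam8* or *Reck* value of 34 to 82 reads limits what can be seen in these genes.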
